A study of Mus musculus with 12 samples.

Results

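Cardiac fibroblasts were followed through 10 marker genes in left ventricles of mice that overexpress CnAb1 and of wild-type mice, after transverse aortic constriction (TAC) or after sham surgery. The markers and the further gene lists below were chosen with earlier results of these data known. Counts of them against all probes are therefore descriptions and no independent support. The markers fall into 6 genes of resting fibroblast identity (Pdgfra, Ddr2, Tcf21, Dpt, Pi16 and Gsn) and 4 genes of activation (Meox1, Fap, Cd248 and Vim). They are 10 of 20021 gene symbols on the array, and all 10 were among the 16647 named genes kept after a filter on dim probes. CnAb1 is a splicing variant of the beta catalytic subunit of calcineurin, a calcium-activated phosphatase. TAC places a band around the aorta and raises the pressure against which the left ventricle works. Per the labels, the mice were C57/Bl6 and a section of the left ventricle was taken 21 days after surgery. A separate time label, however, reads 21 for the TAC samples and 0 for the sham samples, so when the sham hearts were taken is not settled, and an effect of time and of TAC could not be told apart if they were taken earlier. The groups were CnAb1 transgenic after TAC, CnAb1 transgenic after sham, wild type after TAC and wild type after sham, with 3 arrays each. Not given in the sources used here are the mice's age, the promoter that drives the transgene and the number of transgenic lines. Whether the 3 arrays of a group are 3 mice is not stated in the labels, and the p-values therefore reflect a spread between arrays that may be partly technical.

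Fibroblasts of the adult heart lie between the muscle cells, secrete the collagen network and carry receptors for platelet-derived growth factors and for collagen on their surface. At rest they express the transcription factor Tcf21 and secreted proteins of the adventitia and interstitium. Under pressure load they divide and turn on genes of matrix production, and some become myofibroblasts with contractile actin filaments. The signals below come from whole tissue, in which fewer cells of a type and less RNA per cell cannot be told apart.

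Levels are log2 processed signals minus the 75th percentile of their own array, so that 0 is the brightness below which 75% of the array's probes lay, and levels of different genes are not set against each other. All 10 leading probes were well above background on 12 of 12 arrays. Transgenic sham array 2 stood apart, with 37.0% of probes well above background against 60.2% to 78.1% on the other arrays. Without it the counts of markers called below were 7 and 0 for TAC in wild-type and transgenic hearts, 0 and 3 for genotype after sham and after TAC, and 3 for the interaction. The 75th percentile itself was 9.40 to 9.77 on transgenic TAC arrays, 9.40 to 9.42 on transgenic sham arrays, 9.78 to 9.83 on wild-type TAC arrays and 8.89 to 9.16 on wild-type sham arrays, on the log2 scale. The arrays lay on 5 slides, of which only 2 held more than 1 group, and transgenic TAC arrays 1 and 2, transgenic sham array 3 and wild-type sham array 3 shared no slide with another group. Differences are given as log2 values ± standard error from limma, with p adjusted by Benjamini-Hochberg over all 30347 probes tested, and a probe passed at an adjusted p under 0.05. The single probe of Ppp3cb, the gene that encodes the CnAb subunit, differed by -0.27 between transgenic and wild-type sham hearts (limma, adjusted p = 0.181). Which part of the transcript it reads is not known here, so it does not check the genotype labels.

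TAC was set against sham in wild-type hearts to ask how the markers respond to pressure overload without the transgene. All 4 activation markers rose, as did 3 of the 6 resting markers, Pi16, Pdgfra and Ddr2, and none fell. The 7 calls among 10 genes compare with 9.08% of all probes called higher (20.2% called in either direction). The median difference was 1.65 over the activation markers and 0.61 over the resting markers, against -0.09 over all probes. On 8 of the 10 genes every TAC array lay above every sham array, a separation seen on 18.7% of all probes.

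Among the resting markers with a receptor role, Pdgfra (probe A_51_P345649) encodes the alpha receptor for platelet-derived growth factors, which marks nearly all cardiac fibroblasts. Its levels were 0.20, 0.06 and -0.34 on the transgenic TAC arrays, -0.04, -0.29 and -0.22 on the transgenic sham arrays, -0.11, 0.77 and 0.54 on the wild-type TAC arrays and -0.91, -0.64 and -0.83 on the wild-type sham arrays. The wild-type sham arrays were the lowest of the 12, and wild-type TAC array 1 lay within the transgenic range while the other two lay above every other array. Pdgfra rose by 1.19 ± 0.22 with TAC in wild-type hearts (2.28-fold; limma, adjusted p = 0.00634). Of 5 further genes of its pathway, the PDGF ligands and the second receptor, 1 rose with TAC in wild-type hearts, against 9.08% of all probes: Pdgfrb, the beta receptor of pericytes and fibroblasts, by 1.22 ± 0.18 (limma, adjusted p = 0.00288). The ligand gene Pdgfc measured 1.09 ± 0.36 and did not pass (adjusted p = 0.0589), and the ligand genes Pdgfa and Pdgfd measured -0.16 ± 0.12 and -0.11 ± 0.25 (limma, adjusted p = 0.406 and 0.821). The median of the 5 was 0.06.

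Ddr2 (probe A_51_P267796), a receptor tyrosine kinase that binds fibrillar collagen, had levels of 0.26, 0.43 and 0.25 on the transgenic TAC arrays, 0.44, 0.53 and 0.34 on the transgenic sham arrays, 0.58, 1.02 and 0.69 on the wild-type TAC arrays and 0.15, 0.45 and 0.08 on the wild-type sham arrays. All 3 wild-type TAC arrays lay above the other 9 arrays, and the wild-type sham arrays overlapped those of both transgenic groups. It rose by 0.54 ± 0.14 with TAC in wild-type hearts (1.45-fold; limma, adjusted p = 0.0275). A second, dimmer Ddr2 probe (A_55_P1992954) measured 0.27 ± 0.17 and did not pass (adjusted p = 0.305), so the probes of this gene disagree on the call. The call on the leading probe was also lost when any of wild-type TAC arrays 2 and 3 or wild-type sham arrays 1 and 3 was left out, with adjusted p up to 0.0994, and under median scaling, normexp background correction or a fit of the wild-type groups alone. Of 5 measured genes for the related receptor and the collagen-binding integrins, 4 rose in the same comparison, against 9.08% of all probes, with a median of 0.66. The integrin chains Itga11 and Itga1 rose by 3.09 ± 0.44 and 0.91 ± 0.11 (limma, adjusted p = 0.00236 and 0.00137), Ddr1 by 0.66 ± 0.15 (adjusted p = 0.016) and Itgb1 by 0.51 ± 0.14 (adjusted p = 0.0335). Second probes of Itga1 and Itgb1 measured 0.53 and 0.21 and did not pass (limma, adjusted p = 0.137 and 0.467).

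Tcf21 (probe A_51_P459944), a helix-loop-helix transcription factor that sets fibroblast fate in the embryonic epicardium, had levels of -0.90, -0.90 and -1.02 on the transgenic TAC arrays, -0.66, -1.65 and -2.03 on the transgenic sham arrays, -0.88, -0.62 and -0.75 on the wild-type TAC arrays and -1.58, -1.16 and -1.54 on the wild-type sham arrays. The transgenic sham arrays were the most scattered group of any marker, with an SD of 0.71 (n = 3), and spanned the lowest and almost the highest value. All wild-type TAC arrays lay above the wild-type sham arrays, by a mean of 0.68 ± 0.29, but the difference did not pass (limma, adjusted p = 0.137). With transgenic sham array 1 left out of the fit the wild-type difference passed (limma, adjusted p = 0.0158). It also passed when only the wild-type groups were fitted (limma, adjusted p = 0.0301). Among 8 genes for the dimerisation partners of Tcf21 and for embryonic epicardial regulators, 2 rose with TAC in wild-type hearts, against 9.08% of all probes, and the median was 0.51. The partners Tcf4 and Tcf3 rose by 0.84 ± 0.10 and 0.57 ± 0.13 (limma, adjusted p = 0.00116 and 0.0136). A second Tcf4 probe passed at 0.89 (adjusted p = 0.0149), while a second Tcf3 probe measured 0.55 and did not pass (adjusted p = 0.0735). Tbx20, a T-box transcription factor, did not pass on its leading probe (0.29, adjusted p = 0.415), while its 2 dimmer probes passed at 0.66 and 1.52 (limma, adjusted p = 0.00991 and 0.0162). Tcf12, the remaining partner, measured 0.65 ± 0.22 and Wt1, an epicardial transcription factor, 0.81 ± 0.31 (limma, adjusted p = 0.0607 and 0.0937).

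Of the secreted and surface proteins, Pi16 (probe A_55_P1999102), a peptidase inhibitor that marks adventitial fibroblasts, gave the smallest adjusted p of the 10 genes for TAC in wild-type hearts. Its levels were 4.33, 4.36 and 4.41 on the transgenic TAC arrays, 3.93, 4.10 and 4.10 on the transgenic sham arrays, 5.39, 5.02 and 5.48 on the wild-type TAC arrays and 3.21, 3.55 and 2.81 on the wild-type sham arrays. The 4 groups did not overlap one another, in the order wild-type TAC, transgenic TAC, transgenic sham and wild-type sham. Pi16 rose by 2.11 ± 0.19 with TAC in wild-type hearts (4.31-fold; limma, adjusted p = 0.000516), and this is a resting marker by the list it was placed in. Dpt (probe A_51_P116651), dermatopontin, a matrix protein that binds decorin, had levels of 1.01, 1.19 and 1.12 on the transgenic TAC arrays, 1.29, 1.40 and 0.75 on the transgenic sham arrays, 1.15, 1.48 and 1.39 on the wild-type TAC arrays and 0.97, 1.36 and 0.28 on the wild-type sham arrays. Its groups overlapped throughout, and the wild-type sham arrays were the most scattered group (SD 0.55, n = 3). The TAC difference in wild-type hearts was 0.47 ± 0.26 (limma, adjusted p = 0.244).

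Gsn (probe A_55_P2013948), gelsolin, severs actin filaments and is abundant in resting fibroblasts. Its levels were 6.54, 6.48 and 6.32 on the transgenic TAC arrays, 6.60, 6.55 and 6.48 on the transgenic sham arrays, 6.12, 6.51 and 6.16 on the wild-type TAC arrays and 6.06, 6.38 and 5.78 on the wild-type sham arrays. Transgenic sham arrays were on average the highest group, and the wild-type groups overlapped each other, with a TAC difference of 0.19 ± 0.16 (limma, adjusted p = 0.483). Of 7 other genes of the gelsolin family 1 rose in wild-type hearts, against 9.08% of all probes: Capg, an actin-capping protein of macrophages and other motile cells, by 1.32 ± 0.19 (limma, adjusted p = 0.00245). Svil (0.31 ± 0.16), Flii (-0.15 ± 0.09) and Scin (0.60 ± 0.47) did not pass, with adjusted p of 0.22, 0.3 and 0.42 by limma, and the median of the 7 was 0.31. A second, dimmer Svil probe measured -0.48 (limma, adjusted p = 0.0521). A dimmer Flii probe passed at -0.35 (limma, adjusted p = 0.0383).

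**Figure D1:**
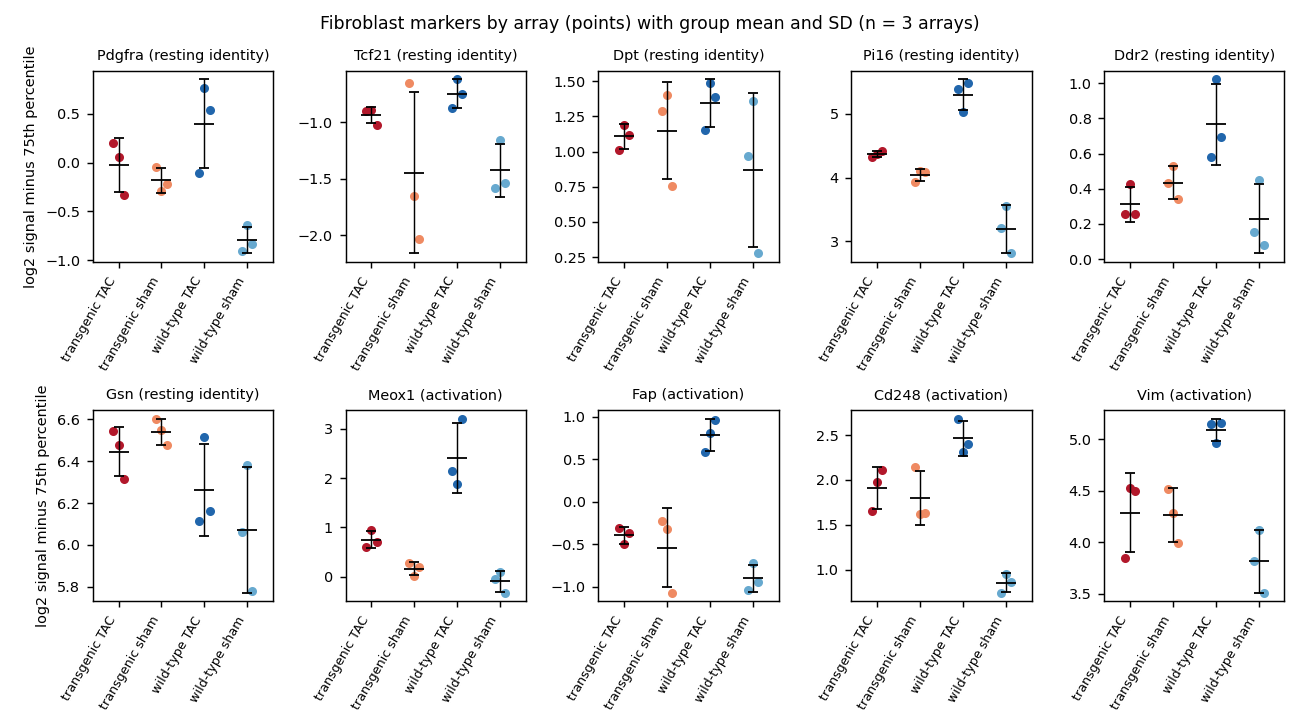
Level of each marker on each array (log2 signal minus the array's 75th percentile, a separate scale per gene), as points by group with the group mean and SD (n = 3 arrays). Wild-type TAC arrays had the highest group mean for 9 of the 10 genes, the exception being Gsn, and wild-type sham arrays the lowest for 9, the exception being Tcf21. The shares of all probes with these orders were not computed.

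Each of the activation markers rose with TAC in wild-type hearts. Meox1 (probe A_55_P2034245) encodes a homeobox transcription factor induced in stressed cardiac fibroblasts. Its levels were 0.60, 0.94 and 0.70 on the transgenic TAC arrays, 0.28, 0.02 and 0.19 on the transgenic sham arrays, 2.14, 1.87 and 3.21 on the wild-type TAC arrays and -0.05, 0.09 and -0.32 on the wild-type sham arrays. Wild-type TAC arrays lay far above all others and were spread widely (SD 0.71, n = 3), with array 3 the highest. Meox1 rose by 2.50 ± 0.29 with TAC in wild-type hearts (5.65-fold; limma, adjusted p = 0.00129), the highest difference among the 10 genes.

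Fap (probe A_55_P2115225), fibroblast activation protein, is a membrane protease of activated fibroblasts. Its levels were -0.31, -0.50 and -0.37 on the transgenic TAC arrays, -0.23, -0.32 and -1.07 on the transgenic sham arrays, 0.58, 0.81 and 0.96 on the wild-type TAC arrays and -1.04, -0.73 and -0.95 on the wild-type sham arrays. The wild-type TAC arrays were the only ones above 0, and transgenic sham array 3 lay below all wild-type sham arrays while the other two transgenic sham arrays lay above them. Fap rose by 1.69 ± 0.21 with TAC in wild-type hearts (3.22-fold; limma, adjusted p = 0.00156).

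Cd248 (probe A_51_P188271), endosialin, is a membrane glycoprotein of activated fibroblasts and pericytes. Its levels were 1.65, 1.98 and 2.11 on the transgenic TAC arrays, 2.14, 1.62 and 1.63 on the transgenic sham arrays, 2.68, 2.31 and 2.40 on the wild-type TAC arrays and 0.74, 0.95 and 0.87 on the wild-type sham arrays. Wild-type sham arrays stood below all 9 others and wild-type TAC arrays above all 9 others, with the transgenic groups overlapping each other in between. Cd248 rose by 1.61 ± 0.18 with TAC in wild-type hearts (3.05-fold; limma, adjusted p = 0.00102).

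Vim (probe A_51_P392687), vimentin, is the intermediate filament protein of fibroblasts, endothelial cells and leukocytes alike. Its levels were 3.84, 4.52 and 4.50 on the transgenic TAC arrays, 4.52, 4.28 and 3.99 on the transgenic sham arrays, 5.15, 4.97 and 5.16 on the wild-type TAC arrays and 3.82, 4.12 and 3.51 on the wild-type sham arrays. Wild-type TAC arrays lay above all others, and the remaining 3 groups overlapped. Vim rose by 1.28 ± 0.22 with TAC in wild-type hearts (2.42-fold; limma, adjusted p = 0.00494). Among 7 other intermediate filament genes, 3 rose and 1 fell, against 9.08% and 11.2% of all probes, with a median of 0.35. Des, the desmin of muscle cells, rose by 0.49 ± 0.10, Lmnb1, a nuclear lamin, by 0.97 ± 0.26 and Synm, which assembles with desmin and vimentin, by 0.70 ± 0.20 (limma, adjusted p = 0.0111, 0.0265 and 0.0361). Lmnb2, a second B-type lamin, fell by 0.68 ± 0.16 (limma, adjusted p = 0.0142). Of the 5 Synm probes 2 passed, all 5 with positive differences.

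The files give slide and scan date as technical batches. Each slide had its own scan date, so slide and scan date cannot be told apart. Within the single slide that held both wild-type groups, 1 TAC array exceeded the mean of 2 sham arrays by 1.64 for Pi16, 1.54 for Pdgfra, 1.85 for Meox1, 1.69 for Fap, 1.46 for Cd248 and 1.00 for Vim. It exceeded them by 0.72 for Ddr2, 0.75 for Tcf21, 0.32 for Dpt and 0.29 for Gsn, so that the sign was the same for all 10 genes. With slide as a fixed block, the differences between groups rest on the 8 arrays of 2 slides, and the fit has 4 residual degrees of freedom, 1 of them from transgenic TAC arrays 1 and 2 on a slide of their own. Then 2 of the 10 genes passed, Pi16 at 1.81 and Fap at 1.66 (limma, adjusted p = 0.0462 for each), with 304 probes called in all. Under that block Cd248 measured 1.38 (adjusted p = 0.0524), Meox1 2.00 (0.0623), Pdgfra 1.31 (0.075), Vim 0.99 (0.0847) and Ddr2 0.64 (0.0885).

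The same comparison in transgenic hearts asks how the markers respond to TAC when CnAb1 is overexpressed. None of the 10 genes passed, and neither did any other probe (0% called by limma). At an unadjusted p under 0.05, 1917 probes (6.32%) and 0 of the 10 genes differed. The median difference was 0.13 over the activation markers and 0.06 over the resting markers, against -0.02 over all probes. Meox1 measured 0.58 ± 0.29 (95% interval -0.07 to 1.24) and Pi16 0.33 ± 0.19 (-0.09 to 0.74), and on these 2 genes every transgenic TAC array lay above every transgenic sham array, a separation seen on 4.47% of all probes. Tcf21 measured 0.51 ± 0.29 (-0.14 to 1.16), with overlapping arrays. The other 7 genes lay between -0.12 for Ddr2 and 0.16 for Pdgfra. Fap measured 0.15 (-0.33 to 0.62), Cd248 0.11 (-0.29 to 0.51) and Vim 0.02 (-0.48 to 0.52). These intervals end below the wild-type differences of the same genes, and the test of that difference follows. Within the slide that held both transgenic groups, with 1 array each, the differences ran from -0.37 for Tcf21 to 0.48 for Pi16.

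**Figure D2:**
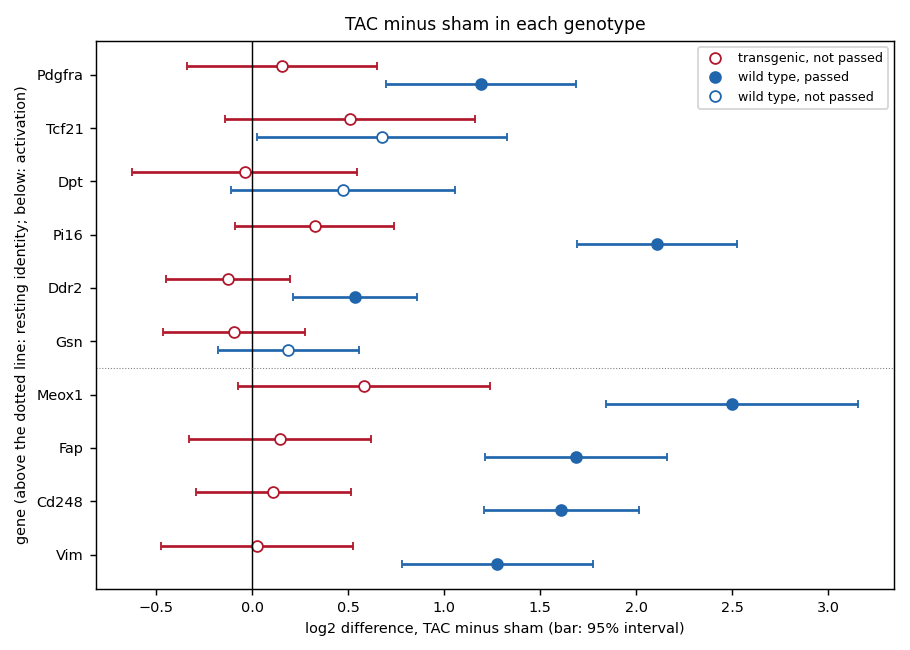
TAC minus sham as a log2 difference for each marker, in transgenic hearts (red, upper of each pair) and wild-type hearts (blue, lower), with 95% intervals from limma (3 arrays a group). Filled points passed at an adjusted p under 0.05. In wild-type hearts 7 of 10 genes passed and in transgenic hearts none, with the transgenic points between -0.12 and 0.58.

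The interaction, which is the transgenic TAC difference minus the wild-type one, was negative for all 10 genes. It passed for Pi16 and for all 4 activation markers, so for 5 of 10 genes, against 3.13% of all probes called lower (6.71% in either direction). Pi16 differed by -1.78 ± 0.26, Cd248 by -1.50 ± 0.25, Fap by -1.54 ± 0.30, Meox1 by -1.92 ± 0.42 and Vim by -1.25 ± 0.32 (limma, adjusted p = 0.0143, 0.0186, 0.0242, 0.0312 and 0.0462). Pdgfra measured -1.04 ± 0.31 and Ddr2 -0.66 ± 0.20 and did not pass (limma, adjusted p = 0.0769 and 0.0817). Dpt (-0.51 ± 0.37), Gsn (-0.28 ± 0.23) and Tcf21 (-0.17 ± 0.41) did not pass either, with adjusted p between 0.432 and 0.843 by limma. The median was -1.52 over the activation markers and -0.59 over the resting markers, against 0.06 over all probes. With slide as a fixed block none of the 10 genes and no other probe passed (limma), with differences for the 5 genes between -1.76 and -0.99, and none of the 10 passed under normexp. Leaving out wild-type sham array 1 ended all 5 calls, with no probe called at all and an adjusted p for Pi16 of 0.051, and leaving out wild-type sham array 3 left 1 of the 5. Without transgenic TAC array 1 the count was 2, and it was 3 without transgenic TAC array 3, transgenic sham array 1 or 2, wild-type TAC array 3 or wild-type sham array 2. Among the fits with a single array left out, the Vim call held only without transgenic sham array 3.

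The comparison of genotypes after TAC asks how banded transgenic hearts differ from banded wild-type hearts. Meox1, Fap and Pi16 were lower in transgenic hearts, 3 of 10 genes against 2.06% of all probes called lower (3.86% in either direction). Meox1 averaged 0.75 ± 0.17 in transgenic TAC hearts and 2.40 ± 0.71 in wild-type TAC hearts (SD, n = 3 each) and differed by -1.66 ± 0.29 (limma, adjusted p = 0.0221). Fap averaged -0.40 ± 0.10 in transgenic TAC hearts and 0.78 ± 0.19 in wild-type TAC hearts (SD, n = 3 each) and differed by -1.18 ± 0.21 (limma, adjusted p = 0.0227). Pi16 averaged 4.37 ± 0.04 in transgenic TAC hearts and 5.30 ± 0.24 in wild-type TAC hearts (SD, n = 3 each) and differed by -0.93 ± 0.19 (limma, adjusted p = 0.0306). On 7 of the 10 genes all transgenic TAC arrays lay below all wild-type TAC arrays, a separation seen on 14.9% of all probes. The other 4 of these 7 did not pass: Vim measured -0.80 ± 0.22, Ddr2 -0.45 ± 0.14, Cd248 -0.55 ± 0.18 and Tcf21 -0.19 ± 0.29 (limma, adjusted p = 0.0746, 0.105, 0.111 and 0.771). The median was -0.99 over the activation markers and -0.33 over the resting markers, against 0.02 over all probes. Within the slide that held both groups, 1 transgenic array differed from the mean of 2 wild-type arrays by -1.98 for Meox1, -1.14 for Fap and -1.02 for Pi16. None of the 3 calls held with slide as a fixed block, where the differences were -1.90, -1.16 and -0.94 (limma, adjusted p = 0.247, 0.212 and 0.263), under normexp, with the TAC groups fitted alone, or when any transgenic TAC array was left out. Without wild-type TAC array 1 or 3 only Meox1 passed.

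The comparison of genotypes after sham asks what the transgene does without added load. Cd248 rose in transgenic hearts, 1 of 10 genes against 0.669% of all probes called higher (1.25% in either direction). It averaged 1.80 ± 0.30 in transgenic sham hearts and 0.85 ± 0.11 in wild-type sham hearts (SD, n = 3 each) and differed by 0.95 ± 0.18 (1.93-fold; limma, adjusted p = 0.0425). The call was lost on leaving out any array but transgenic TAC array 1, with adjusted p up to 0.168, and with slide as a fixed block (0.86, adjusted p = 0.15), normexp, quantile normalization, no filter or the sham groups fitted alone. Within the slide that held both sham groups, the 1 transgenic array, which is the one with few probes above background, exceeded the mean of 2 wild-type arrays by 0.78 for Cd248 and 0.72 for Pi16. Pi16 measured 0.85 ± 0.19 (limma, adjusted p = 0.0601), Pdgfra 0.61 ± 0.22 (0.204) and Gsn 0.47 ± 0.16 (0.19). On these 3 genes and Cd248 every transgenic sham array lay above every wild-type sham array, a separation seen on 8.5% of all probes. The median was 0.41 over the activation markers and 0.37 over the resting markers, against -0.04 over all probes. Tcf21 measured -0.02 ± 0.29 (limma, adjusted p = 0.976) and was the only gene with a negative value. In group means, 8 of the 10 genes in transgenic sham hearts and 9 in transgenic TAC hearts lay between the wild-type TAC and wild-type sham means. The share of all probes with such a position was not computed, so these counts describe the 10 genes only. Since the comparisons share groups, their differences are not independent of one another.

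**Figure D3:**
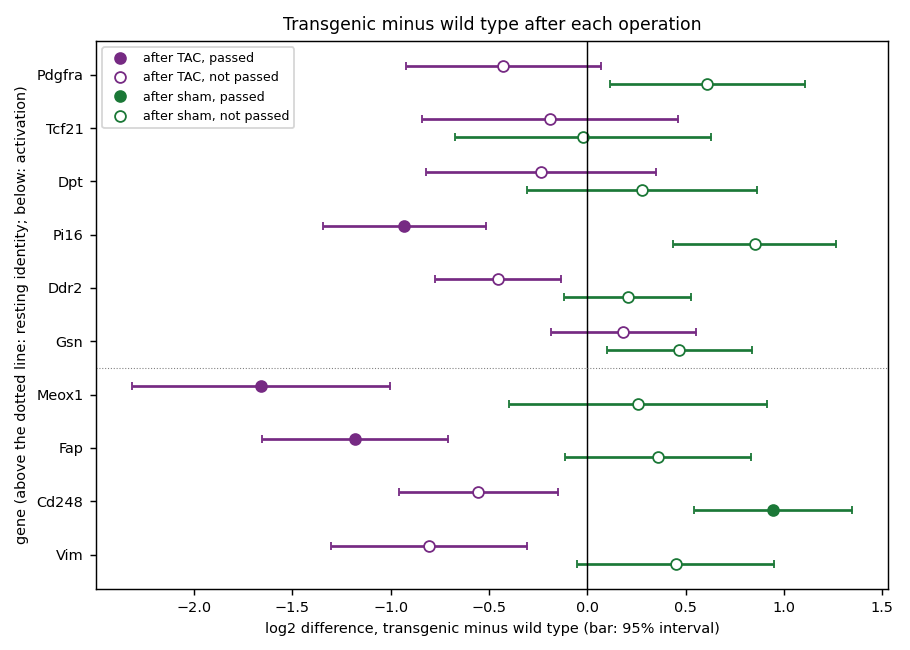
Transgenic minus wild type as a log2 difference for each marker, after TAC (purple, upper of each pair) and after sham (green, lower), with 95% intervals from limma (3 arrays a group). Filled points passed at an adjusted p under 0.05: Pi16, Meox1 and Fap after TAC, and Cd248 after sham.

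Other genes known for the same cell states were read on lists of their own. These lists were chosen with earlier results of these data known, so their counts describe and give no independent support. Of 20 other genes of resting fibroblasts, TAC in wild-type hearts raised 13 and lowered 1, against 9.08% and 11.2% of all probes, and the remaining 6 did not pass, with a median of 0.98. Lum, the collagen-binding proteoglycan lumican, rose by 1.96 ± 0.18, Ecm1, a secreted matrix protein, by 1.63 ± 0.17, Lamb1, a basement membrane laminin chain, by 1.22 ± 0.13 and Pcolce2, an enhancer of procollagen processing, by 1.21 ± 0.12 (limma, adjusted p from 0.000658 to 0.000835). The gene that fell was Scara5, a ferritin receptor of adventitial fibroblasts, by 1.39 ± 0.43 (limma, adjusted p = 0.0487), and its second probe measured -1.42 without passing (adjusted p = 0.0711). In transgenic hearts 0 of the 20 passed, with a median of 0.02, and 7 had a lower interaction, against 3.13% of all probes, with a median of -0.93.

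Of 23 measured other genes of activation and the myofibroblast state, TAC in wild-type hearts raised 20, against 9.08% of all probes, and the remaining 3 did not pass, with a median of 3.04. This list too was chosen with earlier results known, so its counts are a description. Of those 3, Fbln7 and Mdk measured 1.94 and 1.47 on their leading probes (limma, adjusted p = 0.0771 and 0.0588) and passed on their second, at 2.94 and 2.14 (adjusted p = 0.00731 and 0.0234). The matrix proteins Postn, Cilp and Thbs4 and the latent TGF-beta binding protein Ltbp2 had the smallest p, with differences from 3.87 for Thbs4 to 6.31 for Cilp. In transgenic TAC hearts 17 of the 23 were lower than in wild-type TAC hearts, against 2.06% of all probes, with a median of -2.31, and 0 of 23 changed with TAC in transgenic hearts (limma). Among the 17, Cthrc1, a collagen-associated protein of activated fibroblasts, was well above background on 0 of 3 transgenic TAC arrays, so its difference has no firm size. With its transgenic TAC levels raised to the dimmest probe well above background on each array, the group means differed 22.0-fold. That floor is not the limit of this probe, and its wild-type TAC arrays ran from -3.42 to -0.37, so 22.0-fold is no lower bound. With that value the list median was again -2.31. Acta2, the smooth muscle actin by which myofibroblasts are usually recognised, did not pass in any of these comparisons. It was singled out after its values were seen. It measured -0.02 ± 0.37 for TAC in wild-type hearts and 1.65 ± 0.37 for transgenic against wild type after sham (limma, adjusted p = 0.98 and 0.0638). Smooth muscle of vessels expresses it as well.

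Marker lists of other cell types moved in the same arrays. Of 8 cardiomyocyte genes 7 fell with TAC in wild-type hearts, against 11.2% of all probes called lower, with a median of -0.72. In transgenic hearts 0 of the 8 passed, and 5 had a higher interaction, against 3.57% of all probes. The median of the list, relative to the wild-type sham mean, was -0.62 to -0.39 on transgenic TAC arrays, -0.52 to -0.37 on transgenic sham arrays, -0.77 to -0.63 on wild-type TAC arrays and -0.01 to 0.03 on wild-type sham arrays. The log2 of its summed signal ran from 10.71 to 10.97 on transgenic TAC arrays, 10.87 to 11.01 on transgenic sham arrays, 10.60 to 10.75 on wild-type TAC arrays and 11.34 to 11.39 on wild-type sham arrays. The activation markers ran the other way, at 0.65 to 0.87 on transgenic TAC arrays, 0.23 to 0.69 on transgenic sham arrays, 1.59 to 1.71 on wild-type TAC arrays and -0.14 to 0.18 on wild-type sham arrays. The resting markers were at 0.33 to 0.50 on transgenic TAC arrays, 0.26 to 0.63 on transgenic sham arrays, 0.45 to 0.80 on wild-type TAC arrays and -0.22 to 0.29 on wild-type sham arrays. Relative to the 75th percentile of each array, the wild-type TAC arrays thus held the lowest cardiomyocyte and the highest activation medians. That percentile was itself 9.78 to 9.83 on wild-type TAC arrays and 8.89 to 9.16 on wild-type sham arrays. The part of this scaling in the cardiomyocyte values was not tested.

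Of 8 endothelial genes, 4 rose with TAC in wild-type hearts and 1 fell, against 9.08% and 11.2% of all probes, with a median of 0.57. The vessel proteins Emcn, Cdh5, Tie1 and Egfl7 rose, by 0.53 to 1.02. Kdr, a VEGF receptor, fell by 0.63 on its leading probe and measured 0.36 on its second (limma, adjusted p = 0.0334 and 0.311). The log2 summed endothelial signal was 6.91 to 7.46 on transgenic TAC arrays, 7.15 to 7.25 on transgenic sham arrays, 7.27 to 7.53 on wild-type TAC arrays and 6.96 to 7.55 on wild-type sham arrays. Of 9 smooth muscle and pericyte genes, 4 rose and 1 fell, against the same shares, with a median of 0.42. Of these 9, Acta2, Tagln and Cnn1 also stand on the list of activation genes and Pdgfrb on that of the PDGF genes. Their summed signal was 5.46 to 5.92 on transgenic TAC arrays, 5.996 to 6.35 on transgenic sham arrays, 5.499 to 5.81 on wild-type TAC arrays and 5.39 to 5.56 on wild-type sham arrays. Vim is expressed by both cell types and Cd248 by pericytes. The part of these cells in the marker values was not tested.

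Of 9 macrophage and monocyte genes, 2 rose (Adgre1 and Ccr2), against 9.08% of all probes, with a median of 0.39 and a summed signal of 4.45 to 4.65 on transgenic TAC arrays, 4.36 to 4.63 on transgenic sham arrays, 4.47 to 4.99 on wild-type TAC arrays and 4.14 to 4.49 on wild-type sham arrays. A second Adgre1 probe did not pass (0.46; limma, adjusted p = 0.276). Of 8 T and B cell genes 1 fell, Cd4, against 11.2% of all probes, with a median of -0.24 and a summed signal of 2.49 to 2.77 on transgenic TAC arrays, 2.69 to 3.35 on transgenic sham arrays, 2.26 to 2.50 on wild-type TAC arrays and 2.99 to 3.20 on wild-type sham arrays. A second Cd4 probe did not pass (-0.12; limma, adjusted p = 0.63). Of 4 measured mesothelial and epicardial genes 1, Msln, fell with TAC in wild-type hearts, by 2.03 ± 0.40, and measured -3.60 ± 0.40 for transgenic against wild type after sham, where 0.58% of all probes were called lower (limma, adjusted p = 0.00774 and 0.00399). Their summed signal was -0.72 to -0.21 on transgenic TAC arrays, -1.33 to 0.03 on transgenic sham arrays, -0.43 to -0.24 on wild-type TAC arrays and -0.10 to 0.22 on wild-type sham arrays. Of these 4 genes, 2 to 4 were well above background on transgenic TAC arrays, 1 to 2 on transgenic sham, 2 to 3 on wild-type TAC and 2 to 4 on wild-type sham arrays. Some of these levels thus lay near background. The 4 Schwann cell, 3 atrial, 3 adipocyte and 2 red cell genes had no call in this comparison, and the atrial gene Sln was well above background on 0 of 3 wild-type sham arrays. The part of these cells in the marker values was not tested either.

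**Figure D4:**
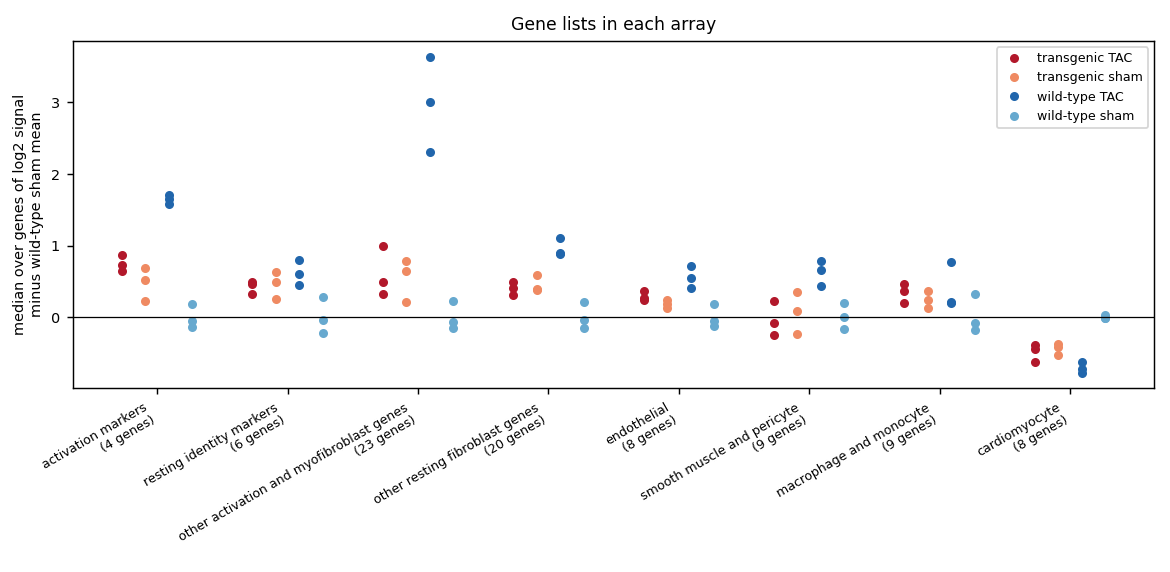
Median over the genes of a list of the log2 signal minus its wild-type sham mean, 1 point per array, for the activation and resting markers, 2 further fibroblast lists and 4 lists of other cell types. Wild-type TAC arrays stood highest for the activation markers (1.59 to 1.71) and lowest for the cardiomyocyte genes (-0.77 to -0.63).

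How the markers varied together was described over the 12 arrays, which fall into 4 groups and share the scaling of each array, so the correlations carry no test. Over 9156 named genes well above background on every array, the pattern most like that of Meox1 was Mfap2, a microfibril protein (Pearson r = 0.99), followed by Endod1 (r = 0.98) and Pdlim2 (r = 0.98). Fap had Fndc1 (r = 0.98) and Entpd2 (r = 0.97) among its nearest. Vim was nearest to the basement membrane gene Nid2 (r = 0.98), Cd248 to Tnfaip8l1 (r = 0.97) and Pi16 to Tcf4 and the matrix gene Cilp (r = 0.98 each). Pdgfra and Ddr2 had endothelial genes among their nearest, Cdh5 for Pdgfra (r = 0.93) and Ptprb (r = 0.95) and Tie1 (r = 0.94) for Ddr2. Tcf21 was nearest to Cd55 (r = 0.96), Dpt to Ehd2 (r = 0.87) and Gsn to Tnxb, a matrix tenascin (r = 0.85). Irf8 was also among the nearest of Tcf21 (r = 0.95), Il3ra of Dpt (r = 0.87) and C1qc of Gsn (r = 0.82). After the group means were removed, the correlations of the markers with these nearest genes ran from 0.57 for Cd248 and Srd5a3 to 0.98 for Tcf21 and Cd55. Over all pairs of markers, Ddr2 with Gsn and Dpt with Gsn then had the highest values and Pdgfra with Cd248 the lowest. The correlation of Ddr2 and Gsn was 0.86, against 0.39 before, that of Dpt and Gsn 0.77, against 0.61, and that of Pdgfra and Cd248 -0.38, against 0.78.

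The promoters of 4 markers, 3 that rose with TAC in wild-type hearts and 1 that did not pass, are shown because the transgene encodes a form of calcineurin. The textbook target of calcineurin is the transcription factor family NFAT. Whether the CnAb1 variant acts through NFAT was not tested. RefSeq windows of 250 bases before the transcription start (GRCm38.p6) were found for 7 of the 10 genes, with 3 starts for Gsn, 9 windows in all. Meox1, Fap and Cd248 had no window, so Vim was the only activation marker read here. The NFAT core GGAAA, on either strand, was present in 8 of the 9 windows, against 55.6% of 32851 windows of all genes. It occurred 4 times for Pdgfra, 3 for Vim, 2 each for Tcf21 and Dpt, 1 each for Pi16 and Ddr2, and 2, 0 and 1 times for the 3 starts of Gsn. The windows of genes that rose and of genes that did not pass thus both held it. The TATA box letters TATAAA stood at -32 in the Vim window and at -185 in the Ddr2 window, and in 12.4% of all windows. Pi16 (chr17:29318632-29318881, + strand) and Vim (chr2:13574061-13574310, + strand) rose and had an interaction, Pdgfra (chr5:75152001-75152250, + strand) rose, and Tcf21 (chr10:22820144-22820393, - strand) did not pass. Each is printed 5′ to 3′ in lower case up to the base before the start, with matches to the NFAT core and the TATA box, on either strand, in capitals.
Pi16: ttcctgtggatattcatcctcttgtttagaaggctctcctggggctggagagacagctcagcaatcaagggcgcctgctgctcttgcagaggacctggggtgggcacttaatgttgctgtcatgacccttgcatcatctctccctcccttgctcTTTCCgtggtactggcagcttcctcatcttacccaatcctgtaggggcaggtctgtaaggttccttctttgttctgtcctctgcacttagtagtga
Vim: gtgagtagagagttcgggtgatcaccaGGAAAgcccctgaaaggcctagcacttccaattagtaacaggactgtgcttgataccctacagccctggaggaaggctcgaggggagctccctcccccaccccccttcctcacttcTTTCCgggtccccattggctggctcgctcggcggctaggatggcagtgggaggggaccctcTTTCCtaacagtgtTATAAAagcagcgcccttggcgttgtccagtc
Pdgfra: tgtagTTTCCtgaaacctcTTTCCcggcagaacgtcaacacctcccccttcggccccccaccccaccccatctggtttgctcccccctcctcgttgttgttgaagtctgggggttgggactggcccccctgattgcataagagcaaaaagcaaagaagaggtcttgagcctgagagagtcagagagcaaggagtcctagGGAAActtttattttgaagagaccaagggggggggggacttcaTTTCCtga
Tcf21: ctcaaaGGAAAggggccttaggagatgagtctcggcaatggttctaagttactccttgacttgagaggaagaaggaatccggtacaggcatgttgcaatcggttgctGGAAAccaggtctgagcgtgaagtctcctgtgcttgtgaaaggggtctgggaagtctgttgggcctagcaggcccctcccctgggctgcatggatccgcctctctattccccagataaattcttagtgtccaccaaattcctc

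None of the 9 windows held the AP-1 letters TGANTCA, the TEAD letters GGAATG, the SMAD letters GTCTAGAC or a MEF2 site on either strand, which were present in 6.7%, 12.6%, 0.2% and 3.2% of all windows. Other letters did match. The E-box CAGCTG stood in windows of Dpt and Gsn (13.0% of all windows) and the GC box GGGCGG in those of Gsn (32.7%). The CCAAT box stood in windows of Pi16, Gsn and Vim (33.8%). A match of letters is a description and no binding site, and a missing match says only that these letters are not in the window.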

How the data were processed

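Left ventricular RNA of 12 samples in 4 groups of 3 was hybridised to single-colour (Cy3) Agilent mouse arrays, and groups follow the sample titles. The deposited array files hold spot intensity values made with Feature Extraction 10.7.3.1, per the file headers, with background subtracted and no scaling between arrays. The deposited value table is in log2 units and matched centred scanner values. The submitters' processing notes name RMA without saying where it was used. Flags for outlier, background and saturation are 0 or 1, per the file headers.

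Outlier and control spots were left out, which left 43020 spots and 39429 probes after averaging, and log2 signals were expressed relative to the 75th percentile of their array. Symbols came from transcript accessions through a RefSeq table of GRCm38.p6, which named 26424 probes. The arrays' annotation names mm9, so the table served for names only. A probe was kept if well above background on 3 or more arrays (30347 probes). The brightest probe stands for a gene, and other probes are given where their call for TAC in wild-type hearts differs. limma 3.58.1 in R 4.3.3 fitted a mean per group over 12 arrays, with two-sided moderated tests and Benjamini-Hochberg adjustment over all kept probes at a threshold of 0.05. The number of arrays limits the precision. The marker genes and the lists were chosen with earlier results of these data known. All 10 genes are named whatever their test. From other lists up to 4 genes with the smallest p for TAC in wild-type hearts are named, and genes named beyond that (Scara5, Acta2, Cthrc1, Fbln7, Mdk, Tbx20, Kdr, Egfl7, Sln, Ppp3cb, and called members of the cell marker lists) were chosen after their values were seen. The lists held 20 other resting genes, 24 other activation genes, 5 PDGF genes, 6 collagen receptor genes, 8 Tcf21 partner genes, 7 intermediate filament and 7 gelsolin family genes and markers of 10 other cell types. Alternatives were normexp with an offset of 50, quantile and median scaling, the deposited table, other filters, outlier spots kept, 1 probe per gene, the compared groups alone, a replicate block, slide as a fixed or random block, and each array left out. The steps were tested on simulated data. No pair of arrays was identical.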

Additional observations from a re-analysis of the deposited data

Results flagged for a closer look

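For 5 markers the response to TAC differed between genotypes by the test of the difference itself, the interaction in limma over all probes. The transgenic difference minus the wild-type one was -1.78 for Pi16, -1.92 for Meox1, -1.54 for Fap, -1.50 for Cd248 and -1.25 for Vim. Under the settings tried other than single arrays left out, the call ended for all 5 with slide as a fixed block and with normexp. With a replicate block it ended for Meox1, Fap and Vim, and with slide as a random block for Vim. Over all 24 settings the call held in 21 for Pi16, 20 for Cd248, 17 for Fap, 12 for Meox1 and 6 for Vim. Of the 12 fits with a single array left out, it held in 11 for Pi16, 10 for Cd248, 8 for Fap, 4 for Meox1 and 1 for Vim. The sign was the same under every one of the 24 settings for these 5 genes.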

How the results depend on the processing

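Of 50 values (10 genes in 5 comparisons), 41 kept their sign under all 24 other settings, among them all 16 that passed. The count of markers called for TAC in wild-type hearts was 7, moved to 2 with slide as a fixed block and 6 with normexp or median scaling, and ran from 6 to 8 with single arrays left out. For TAC in transgenic hearts it was 0 throughout. For genotype after sham it was 1, and became 0 with normexp, quantile normalization, no filter, the compared groups alone, a replicate block or slide as a fixed block, and 2 with a filter on all 12 arrays. It was 0 to 1 with single arrays left out, 1 only without transgenic TAC array 1. For genotype after TAC it was 3, and became 0 with normexp, the compared groups alone, a replicate block or slide as a fixed block, 2 with median scaling or no filter, and 6 with the filter on all 12 arrays. It was 0 to 3 with single arrays left out, 0 without any 1 of the transgenic TAC arrays and 1 without wild-type TAC array 1 or 3. For the interaction it was 5, and became 0 with normexp or slide as a fixed block, 3 with no filter, 2 with a replicate block, 7 with the filter on all 12 arrays and 4 with quantile normalization, median scaling or slide as a random block. It was 0 to 5 with single arrays left out: 0 without wild-type sham array 1, 1 without wild-type sham array 3, 2 without transgenic TAC array 1, and 3 without transgenic TAC array 3, transgenic sham array 1 or 2, wild-type TAC array 3 or wild-type sham array 2. The slide block uses fewer arrays between groups and the left-out fits fewer samples, and the cause of none of these moves was tested. The number of all probes called moved as well. With the filter on all 12 arrays, 3624 of 14289 probes were called for the interaction, against 2035 of 30347 in the main fit. Genotype after TAC had 2820 calls under that filter, against 1172, and genotype after sham 1236, against 379. With normexp the calls were 4 for the interaction and 42 for genotype after TAC. Under normexp, which starts from median brightness, the median of all probes for TAC in wild-type hearts was 0.26 in place of -0.09.

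Signs turned only for values that had not passed, the largest of them 0.51 for Tcf21 with TAC in transgenic hearts. For TAC in transgenic hearts Vim measured -0.0422 with normexp, -0.0078 with quantile normalization, -0.0373 with median scaling and -0.0053 with slide as a fixed block, under which Pdgfra measured -0.0664, Tcf21 -0.0253 and Fap -0.10. Single arrays left out gave Vim -0.11 to 0.25, Dpt -0.24 to 0.0875 and Fap -0.12 to 0.30. For genotype after sham Tcf21 measured 0.0501 with normexp, 0.0188 with quantile normalization, 0.10 with median scaling and 0.0548 with slide as a fixed block, under which Meox1 measured -0.15. Single arrays left out gave Tcf21 -0.42 to 0.27 and Dpt -0.0169 to 0.53, and the Tcf21 interaction ran from -0.46 to 0.23. The cause was not tested. The counts of all probes called ran from 304 to 7125 for TAC in wild-type hearts, 0 to 2 for TAC in transgenic hearts, 33 to 1236 for genotype after sham, 11 to 2820 for genotype after TAC and 0 to 3624 for the interaction.

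The labels state no pairing of arrays by replicate number. Of 18 same-numbered pairs 4 had correlated deviations over 0.1 (range -0.38 to 0.22). The share among differently numbered pairs was not set beside this, so the count does not settle whether the numbers pair the arrays. With the number as a block, 0 markers passed for genotype after sham, 0 after TAC and 2 for the interaction, Pi16 and Cd248. Signal over background limits the second Ddr2 probe, which was dim on 1 array.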
